A study of Mus musculus with 8 samples.

Results

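The genes described here are the 8 globin genes Hbb-bh1, Hbb-y, Hbb-bh2, Hbb-bs, Hbb-bt, Hba-x, Hba-a1 and Hba-a2, taken by symbol from a table of 75078 mouse genes. All 8 were in the table, 6 had any count in the 8 libraries, and 2 (Hbb-bh1 and Hbb-bs) had enough counts to be tested. They were chosen because Hbb-bh1 was known to be lower with the Yy1 plasmid and because YY1 is known to repress embryonic globins. Their differences between the plasmids are therefore given as a description with no p-value. Calls of these genes are counted beside the share of all genes called, and support nothing, since the same contrast chose the genes. RNA came from αTC1-6, a mouse pancreatic alpha cell line that was derived from a glucagon-producing tumour of transgenic mice. Transfection took place 24 h after the cells were plated, in DMEM given as 11 mM, either with an empty plasmid (the control libraries 31, 32, 33 and 34) or with a plasmid that overexpresses Yy1 (the Yy1 libraries 45, 46, 47 and 48). The labels and design text give 4 samples per group, no age or further genotype, no promoter of the plasmid, no time of harvest, and no statement that samples were separate cultures, so p-values rest on a spread between samples that may be technical. Nor do they say whether the groups were handled together, so handling and plasmid cannot be told apart.

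Hemoglobin is built from alpha-like and beta-like globin chains that each hold a heme. In mice the alpha-like genes lie in a cluster on chromosome 11 and the beta-like genes in a cluster on chromosome 7, and each cluster holds embryonic genes, used by primitive red cells of the yolk sac, and adult genes, used by definitive red cells. A distant enhancer group, the locus control region, drives the beta cluster in red cells under GATA1, KLF1 and their cofactor LDB1, and alpha cells are not known to make hemoglobin.

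The globin genes were near the limit of detection in these alpha cells, and the beta cluster held most of their counts. Summed over the 8 genes, the control libraries held 101, 73, 66 and 69 counts and the Yy1 libraries held 20, 15, 91 and 16. Depth ran from 20679565 to 33347196 counts per library, and the limit that 0 counts in a library allow, taken as 3 counts, came to 0.0901 to 0.147 CPM, the count divided by the library size in units of 1e6 counts, scaled by TMM. In CPM the sum was 3.27, 2.74, 3.23 and 2.47 in the controls and 0.612, 0.504, 2.73 and 0.501 in the Yy1 libraries. Library 47 thus stood with the controls in its globin sum, and the other 3 Yy1 libraries lay far below all 4 controls. The ratio of the scaled sums, Yy1 over control, was 0.381 with an exact 95% interval of 0.310 to 0.466, and without library 47 it was 0.185 with an interval of 0.135 to 0.25. These intervals, and those below, cover counting error only. Because that library stands apart, the values of the globin genes are also given without it.

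The targeted gene was high in the libraries labelled for it. Yy1, which encodes a zinc finger factor that can activate or repress genes, stood at 176, 168, 174 and 181 CPM in the controls and at 5890, 4810, 5110 and 5100 CPM in the Yy1 libraries. The means were 175 ± 5.32 and 5230 ± 463 CPM (SD, n = 4), giving a log2 fold change of 4.90 (SE 0.0619; adjusted p = 7.38e-24 by edgeR). Over all 15916 tested genes the median log2 fold change was -0.002. All 11 alpha cell markers were tested and 0 were called by edgeR (1 had an unadjusted p under 0.05). Gcg stood at 21200 and 21300 CPM in the 2 groups. Of 10 markers of other islet cells, the hormone genes Ins1, Ins2 and Ppy were at 0 in all libraries and 7 had counts. Of these, 4 were tested and 0 were called by edgeR, with 1 at an unadjusted p under 0.05. Nkx6-1 stood at 54.7 and 51.0 CPM, Iapp at 0.501 and 0.418 CPM, and Mafa had a log2 fold change of 0.98 (SE 0.43).

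Among the embryonic genes, Hbb-bh1 was detected in all 4 control libraries and had at most 2 counts in any Yy1 library. Hbb-bh1 (ENSMUSG00000052217), a beta-like chain of primitive red cells, had 11, 10, 9 and 13 counts in the controls, or 0.357, 0.376, 0.440 and 0.465 CPM. With the Yy1 plasmid it had 0, 0, 2 and 2 counts, or 0, 0, 0.0601 and 0.0626 CPM. Every control library lay above every Yy1 library, with a gap wider than the range within either group, and the means were 0.409 ± 0.0514 and 0.0307 ± 0.0354 CPM (SD, n = 4). The fitted log2 fold change was -3.53 (SE 0.642). The ratio of the summed counts, 4 against 43, was 0.0772 after scaling, with an exact 95% interval of 0.0201 to 0.212. This was the lowest log2 fold change of all tested genes, which is how the gene came to be chosen. The gene passed the filter on low counts only through the control group, since no Yy1 library reached the level that the filter asks of 4 libraries. Its place among the tested genes thus rests on the group where it was high.

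The other embryonic genes were not detectable or nearly so at this depth. Hbb-y, which encodes the embryonic epsilon-like chain, had 0 counts in all 8 libraries, as did Hbb-bh2, the gene beside Hbb-bh1. Over a whole group the same limit is 0.0283 CPM for the controls and 0.0235 CPM for the Yy1 libraries. Hba-x, the embryonic zeta-like chain, had 0 counts in 7 libraries and 2 counts in Yy1 library 45. That is fewer than the 3 counts that 0 counts in a library allow. Hbb-bh1 was thus the only embryonic globin with more than 3 counts in a group, at 43 in the controls and 4 in the Yy1 libraries.

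**Figure D1:**
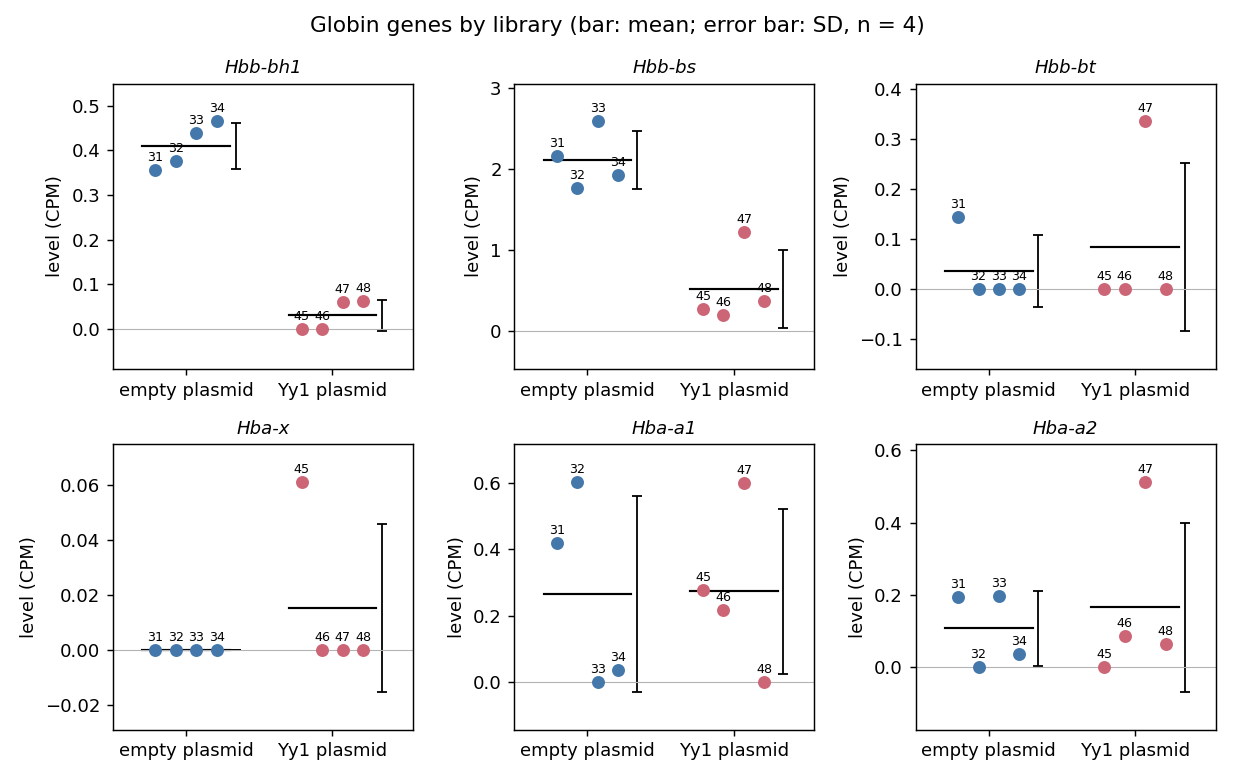
Level in CPM (vertical axis, scale differs by panel) of the 6 globin genes with any count, for the 4 empty plasmid and 4 Yy1 plasmid libraries, each point labelled by its sample number, with the group mean as a bar and the SD beside it. For Hbb-bh1 and Hbb-bs every empty plasmid library lies above every Yy1 library, and for Hbb-bs, Hbb-bt, Hba-a1 and Hba-a2 library 47 is the highest of the Yy1 libraries.

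Among the adult beta genes, Hbb-bs (ENSMUSG00000052305), 1 of a pair of adult beta chain genes of the reference haplotype, was the most abundant globin and was also lower with the Yy1 plasmid. It had 66.5, 47, 53 and 54 estimated counts in the controls, or 2.16, 1.77, 2.59 and 1.93 CPM. With the Yy1 plasmid it had 9, 6, 40.8 and 12, or 0.276, 0.202, 1.23 and 0.376 CPM. The groups did not overlap, but library 47 lay closer to the lowest control library than to the next Yy1 library. The means were 2.11 ± 0.359 and 0.520 ± 0.477 CPM (SD, n = 4). The fitted log2 fold change, the third lowest of all tested genes, was -1.99 (SE 0.434). Like Hbb-bh1, the gene passed the filter on low counts only through the control group. Yy1 libraries 45 and 46, with 9 and 6 counts, lay below the level that the filter asks of 4 libraries. Its place among the tested genes thus also rests on the group where it was high. Without library 47 the Yy1 mean was 0.284 ± 0.0874 CPM (SD, n = 3) and the log2 fold change -2.86 (SE 0.295).

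Its neighbour Hbb-bt, the other adult beta gene, had 4.48 estimated counts in control library 31, 11.2 in Yy1 library 47 and 0 in the other 6 libraries. These are the 2 libraries in which Hbb-bs had fractional counts, and the transcripts of the pair shared 400 words of 31 bases, or 54.4% of the words of Hbb-bs and 59.4% of those of Hbb-bt. Reads from such stretches cannot be assigned to 1 gene, so the split between the pair is uncertain. Summed, the pair had 71, 47, 53 and 54 counts in the controls and 9, 6, 52 and 12 in the Yy1 libraries, or 2.15 ± 0.372 and 0.604 ± 0.643 CPM (SD, n = 4). Fitted as 1 gene, an alternative added after the values were seen, the pair gave -1.80 on the log2 scale (SE 0.562). Hbb-bt counts thus did not make up the difference in Hbb-bs. Hbb-bh1 shared 0 words of 31 bases with any other globin transcript and had whole counts in all 8 libraries.

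Hbb-bh1 and Hbb-bs, the 2 tested members, lie in the beta cluster. Both had every Yy1 library below every control library, as had 1.59% of all tested genes, and nothing is read from this. The groups of Hbb-bt, in the same cluster, overlapped. In the reference order the beta cluster runs Hbb-bt, Hbb-bs, the pseudogenes Gm15115 and Hbb-bh3, then Hbb-bh2, Hbb-bh1, the pseudogene Hbb-bh0 and Hbb-y. The 5 genes of this run other than Hbb-bt, Hbb-bs and Hbb-bh1 were at 0 counts in every library. Promoter sequences were found for 7 of the 8 globin genes in the RefSeq table of build GRCm38.p6, an older build than the GRCm39 named for the data. The one without an entry is Hbb-bh1. The 250 bases before the RefSeq start are shown for the adult gene that was lower (Hbb-bs, chr7:103827929-103828178, minus strand), the other adult beta gene (Hbb-bt, chr7:103813924-103814173, minus strand) and an embryonic gene at 0 counts (Hbb-y, chr7:103853208-103853457, minus strand). Capitals mark, on either strand, AGATAA, the letters bound by GATA factors. They also mark CCACACCC, a form of the box bound by KLF1. The remaining capitals are CCAAT, the letters bound by NF-Y, and the TATA box letters TATAAA. Each line runs from the base farthest upstream to the base before the start.
Hbb-bs: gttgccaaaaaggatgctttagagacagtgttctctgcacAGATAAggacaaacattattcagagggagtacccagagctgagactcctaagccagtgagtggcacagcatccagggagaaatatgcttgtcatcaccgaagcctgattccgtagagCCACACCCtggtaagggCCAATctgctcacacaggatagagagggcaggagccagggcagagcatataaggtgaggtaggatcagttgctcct
Hbb-bt: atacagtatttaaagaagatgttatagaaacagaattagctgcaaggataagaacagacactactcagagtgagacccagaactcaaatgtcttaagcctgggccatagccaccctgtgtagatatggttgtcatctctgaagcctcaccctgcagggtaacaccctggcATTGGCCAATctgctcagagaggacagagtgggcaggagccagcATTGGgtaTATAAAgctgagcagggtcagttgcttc
Hbb-y: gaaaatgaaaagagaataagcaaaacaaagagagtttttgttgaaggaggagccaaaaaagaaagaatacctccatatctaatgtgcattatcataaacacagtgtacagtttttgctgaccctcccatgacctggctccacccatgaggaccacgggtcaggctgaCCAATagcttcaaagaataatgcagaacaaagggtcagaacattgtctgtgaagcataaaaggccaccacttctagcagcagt
In these stretches Hbb-bs held AGATAA starting 210 bases, CCACACCC starting 93 bases and CCAAT starting 76 bases before the start. Hbb-bt held CCAAT at 75 bases and its reverse complement at 80 and 36 bases, and TATAAA at 28 bases, while Hbb-y held CCAAT at 83 bases. Compared without gaps over 299 bases, the windows of Hbb-bs and Hbb-bt were 56.2% identical. The window of Hbb-y was 32.4% identical to that of Hbb-bs and 35.7% to that of Hbb-bt. These values did not exceed the 36.3% between Hba-a1 and Hbb-bh2, which lie in different clusters. The windows of Hba-a1 and Hba-a2 were 100% identical over 297 bases.

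The letters bound by YY1 were searched in the same way, on both strands of the whole 300-base windows, which reach 50 bases past the start. The longer form AANATGGC was in 0 of the 7 globin windows and in 6.05% of all 32851 windows in the table. The core CCAT was in 6 of 7 globin windows, with Hbb-bs the exception, and in 83.1% of all windows. CCAT lies within the reverse complement of the longer form, so their matches can overlap. In Hbb-y, CCAT began 178, 125 and 108 bases before the start, and Hbb-bt held it 147 bases and, on the other strand, 126 bases before the start. Of the other motifs, AGATAA was in 2 of 7 globin windows (Hbb-bs and Hbb-bh2) and in 11.2% of all windows, and CCACACCC was in 1 of 7 (Hbb-bs) and in 3.56%. CCAAT was in 5 of 7 against 37.4%, and TATAAA in 2 of 7 against 13.6%. A match is a run of letters, not a bound site.

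The adult alpha genes showed no such gap. Hba-a1 (ENSMUSG00000069919), an adult alpha chain gene, had 13, 16, 0 and 1 counts in the controls and 9, 6.44, 20 and 0 in the Yy1 libraries. Hba-a2, its near copy, had 6.03, 0, 4 and 1 counts in the controls and 0, 2.56, 17 and 2 in the Yy1 libraries. The groups overlapped widely for both genes. Of the 31-base words of Hba-a2, 92.6% also occurred in Hba-a1, so the counts are best read as a pair. Summed, the pair stood at 0.616, 0.602, 0.196 and 0.0715 CPM in the controls and 0.276, 0.303, 1.11 and 0.0626 CPM in the Yy1 libraries. Library 47 was the highest of all 8 libraries, and the ratio of the summed counts was 1.15 (exact 95% interval 0.759 to 1.77). Without library 47 this ratio was 0.547 (0.304 to 0.956), against 0.135 (0.0868 to 0.201) for the adult beta pair and 0.0522 (0.00613 to 0.2) for Hbb-bh1. Within the control group alone the alpha pair ran from 0.0715 to 0.616 CPM, a spread that the counting intervals do not include.

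Read per kilobase of the longest annotated transcript, the order of levels in the controls was Hbb-bs at 3.36 ± 0.571, Hbb-bh1 at 0.668 ± 0.0838, Hba-a1 at 0.378 ± 0.421, Hba-a2 at 0.193 ± 0.187 and Hbb-bt at 0.0517 ± 0.103 CPM per kb (SD, n = 4). Hbb-bs stood apart from the rest, while neighbours from Hbb-bh1 downwards did not differ beyond their spread. With the Yy1 plasmid the order was Hbb-bs at 0.828 ± 0.759, Hba-a1 at 0.391 ± 0.355, Hba-a2 at 0.298 ± 0.422, Hbb-bt at 0.119 ± 0.239, Hbb-bh1 at 0.050 ± 0.0578 and Hba-x at 0.0191 ± 0.0382 CPM per kb (SD, n = 4), and no neighbours differed beyond their spread. Without library 47 the Yy1 levels were 0.453 ± 0.139 for Hbb-bs, 0.235 ± 0.208 for Hba-a1, 0.0895 ± 0.0803 for Hba-a2, 0.0341 ± 0.0590 for Hbb-bh1, 0.0255 ± 0.0441 for Hba-x and 0 for Hbb-bt, in CPM per kb (SD, n = 3).

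Of the 2 globin genes tested, edgeR called 1, Hbb-bh1, lower at an adjusted p under 0.05, where 0.0188% of all tested genes were called lower and 0.496% higher. Both had every Yy1 library below every control library, which held for 1.59% of tested genes. Since the genes were chosen on this contrast, nothing is read from these counts. Without library 47 both were called lower (background 0.0307%, with 0.369% called higher), and with no filter on low counts 2 of 6 tested members were called lower (background 0.0569%, with 0.373% called higher), again Hbb-bh1 and Hbb-bs. Limma-voom called 2 of 15916 genes lower, which were these, while a filter of 1 CPM in 4 libraries removed Hbb-bh1 and left 0 members among the 2 of 13237 genes called lower. In bulk RNA, fewer cells that hold a transcript and less of it per cell cannot be told apart.

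**Figure D2:**
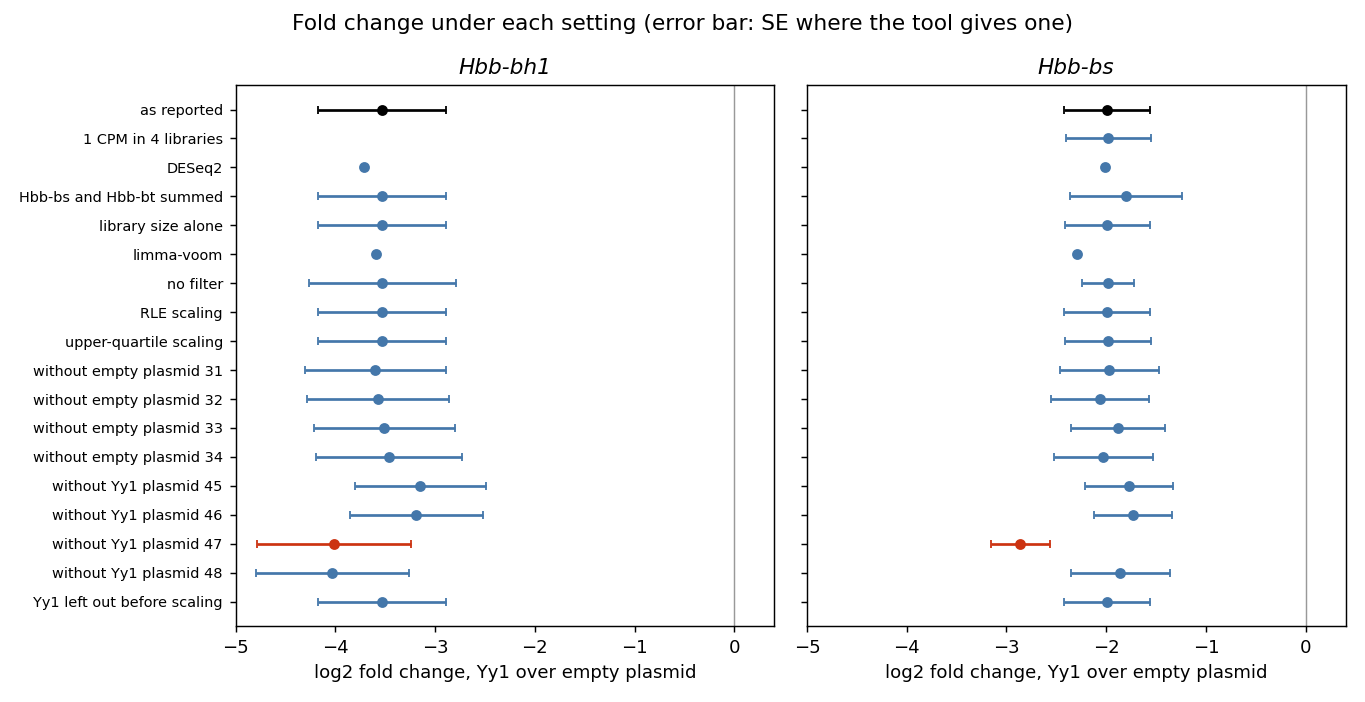
Log2 fold change of Hbb-bh1 and Hbb-bs, Yy1 over empty plasmid (horizontal axis), under each processing setting (rows), with the SE where the tool gives one and the fit without library 47 in red. All values lie below 0, from -4.03 to -3.15 for Hbb-bh1 and from -2.86 to -1.73 for Hbb-bs over the fits that leave out 1 library.

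Library 47 carried more than globin counts. The list of 12 white cell and platelet markers summed to between 5.15 and 7.05 CPM in the controls and between 5.26 and 8.98 CPM in the Yy1 libraries, with library 47 the highest, and 0 of the 12 were at 0 in all libraries. The most abundant was Itga2b, an integrin chain of platelets and their precursors, at 4.70 and 4.07 CPM in the 2 groups, and at 3.64 CPM in library 47, its lowest value. S100a8 and S100a9, which encode the abundant calcium-binding proteins of neutrophils and like the blood cell genes below were chosen after their values were seen, had 34 and 54 counts in library 47. S100a8 had 0 in the other 7 libraries, and S100a9 had 3 in libraries 31 and 48 and 0 in the others. Lyz2, the lysozyme gene of myeloid cells, had 34 counts in library 47, 15 in library 31 and at most 5 elsewhere. Adgre1, a macrophage receptor, and Pf4, a platelet chemokine, had 10 and 5 counts in library 47 and 0 in all others. Not all markers of the list were highest there. Itgam, a myeloid integrin gene, had 25.4 counts in library 31 and 16 in library 47. The white cell gene Ptprc had 9 counts in library 47, the lowest of the Yy1 libraries. The platelet gene Ppbp had 1 count there and 13 in library 48. Library 47 is therefore the library with the most counts of Hbb-bt, Hba-a1, Hba-a2, S100a8, S100a9, Lyz2, Adgre1 and Pf4. Its Hbb-bh1 count of 2 equalled that of library 48. Whether blood cell RNA had a part in the adult globin counts was not tested.

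The red cell markers were not high in library 47 as a sum. The erythroid list summed to between 4.17 and 4.89 CPM in the controls and between 3.58 and 4.28 CPM in the Yy1 libraries, where library 47 had 3.61 CPM. Gata1, the master factor of red cells, was at 0 in all libraries. Alas2, the heme synthesis enzyme of red cells, had 1 count, in library 45. Slc4a1, the red cell anion exchanger, stood at 0.188 and 0.205 CPM in the 2 groups, and Klf1, the activator of adult beta globin, at 0.344 and 0.334 CPM. The largest share of the list came from Tal1, a blood and endothelial factor, at 3.56 ± 0.596 and 2.92 ± 0.345 CPM (SD, n = 4), giving a log2 fold change of -0.28 (SE 0.149; adjusted p = 0.929 by edgeR).

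**Figure D3:**
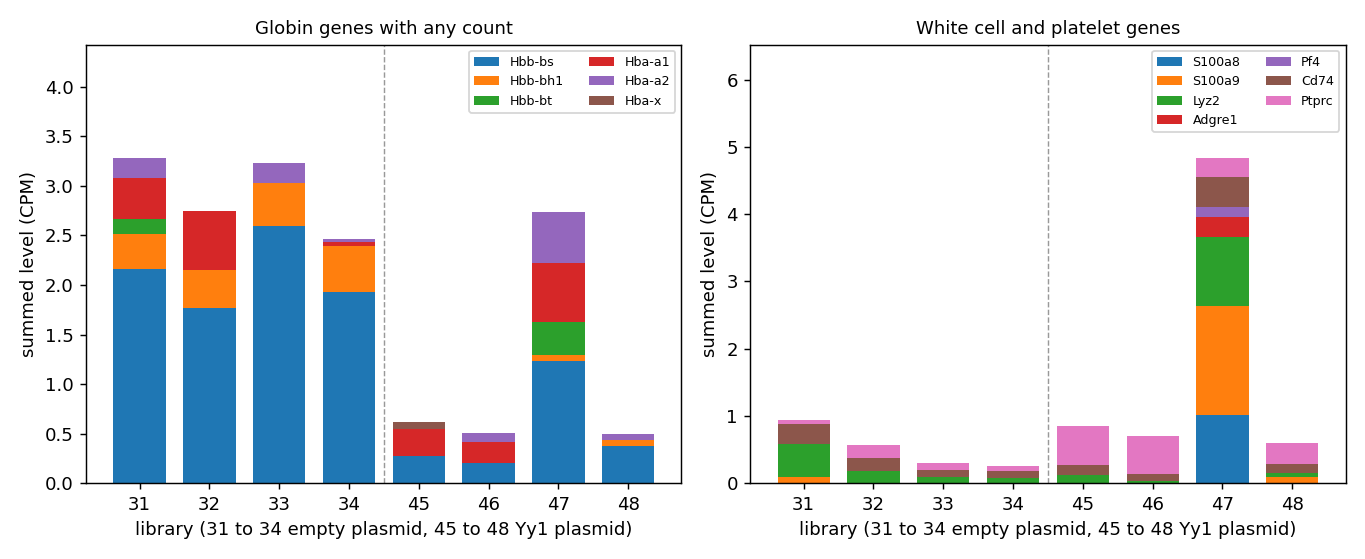
Summed level in CPM (vertical axis) by library, stacked by gene, for the 6 globin genes with any count (left) and for 7 white cell and platelet genes (right), with the empty plasmid libraries 31 to 34 left of the dashed line. Library 47 reaches 2.73 CPM of globin against at most 0.612 in the other Yy1 libraries. It also holds the tallest stack of these 7 white cell and platelet genes, which leave out listed markers such as Itga2b, Itgam and Ppbp.

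Of the 3 nearest tested genes on either side of each cluster 0 were called by edgeR. Around the beta cluster the log2 fold changes ran from -0.13 to 0.79. The nearest tested genes on either side of it, with untested genes passed over, were the olfactory receptor genes Olfr624 and Olfr635. Their log2 fold changes were 0.04 (SE 0.161, edgeR adjusted p = 0.997) and -0.13 (SE 0.372, edgeR adjusted p = 0.997). Of 7 tested genes in a list of beta cluster neighbours 0 were called and 0 had an unadjusted p under 0.05, and the 3 with the smallest p were Rhog, a small GTPase gene (log2 fold change -0.15, SE 0.0984), Stim1, a calcium sensor gene (-0.06, SE 0.0509), and Trim21, an antibody receptor gene (-0.17, SE 0.159). The list's median log2 fold change was -0.033. Of 10 tested genes in a list of alpha locus neighbours 0 were called, 0 had an unadjusted p under 0.05 and the median was -0.005. This list holds Mpg, Nprl3 and Rhbdf1, the 3 nearest tested genes on 1 side of the mouse cluster. It leaves out Sh3pxd2b, Ubtd2 and Efcab9, the nearest on the other side. The other listed genes, Snrnp25 and Arhgdig among them, are not among the nearest and may lie elsewhere in the mouse genome. Nprl3, whose introns hold the alpha globin enhancers, had a log2 fold change of 0.06 (SE 0.0512), Snrnp25, a spliceosome gene, -0.07 (SE 0.0678) and Arhgdig, a GTPase inhibitor gene, -0.24 (SE 0.300).

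Of the other listed globins 2 were tested and 0 were called by edgeR, with 1 at an unadjusted p under 0.05. Ngb, which encodes neuroglobin of neurons and endocrine cells, had 7, 5, 4 and 5 counts in the controls and 18, 13, 26 and 13 in the Yy1 libraries, so the groups did not overlap. The means were 0.197 ± 0.0209 and 0.544 ± 0.170 CPM (SD, n = 4), with a log2 fold change of 1.44 (SE 0.394) that was not called (edgeR unadjusted p = 0.00133, adjusted p = 0.175). Its direction was opposite to that of Hbb-bh1 and Hbb-bs. Cygb, the cytoglobin gene, stood at 0.476 ± 0.131 and 0.374 ± 0.180 CPM (SD, n = 4), giving a log2 fold change of -0.33 (SE 0.392; adjusted p = 0.993 by edgeR). Hbq1a, a theta-like gene of the alpha cluster, was at 0, and Hbq1b had 5 counts in all in the controls and 2 in the Yy1 libraries.

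Of 15 listed genes of heme synthesis and transport 14 were tested and 0 were called, with 1 at an unadjusted p under 0.05 and a median log2 fold change of 0.007. Their summed level ran from 576 to 591 CPM in the controls and from 579 to 594 CPM in the Yy1 libraries. Among those with the smallest p were Ppox, the protoporphyrinogen oxidase gene (log2 fold change -0.23, SE 0.0732; edgeR adjusted p = 0.389) and Cpox, the coproporphyrinogen oxidase gene (0.10, SE 0.0467; edgeR adjusted p = 0.909). With no filter on low counts Ppox was called lower (log2 fold change -0.23, SE 0.0587; edgeR adjusted p = 0.0245), while its groups overlapped. In the list of heme breakdown and iron handling 12 of 16 were tested, 0 were called and 2 had an unadjusted p under 0.05. These were the biliverdin reductase genes Blvrb (log2 fold change 0.21, SE 0.0889) and Blvra (0.15, SE 0.0737), with adjusted p values of 0.826 and 0.909 by edgeR. Hmox2, a heme oxygenase gene, had a log2 fold change of -0.10 (SE 0.0627).

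Regulators of globin genes were expressed in part and were not called either. Of 39 listed erythroid factors and switching regulators 37 had counts and 30 were tested, with 0 called, 2 at an unadjusted p under 0.05 and log2 fold changes from -0.28 to 0.39. Ldb1, the cofactor that bridges the locus control region to globin promoters, stood at 101 ± 2.97 and 94.0 ± 1.32 CPM (SD, n = 4), giving a log2 fold change of -0.10 (SE 0.0394; adjusted p = 0.688 by edgeR), and its groups did not overlap. Nfia, a factor of red cell differentiation, had a log2 fold change of 0.15 (SE 0.0659). Apart from Yy1, 10 genes in a list of YY1 relatives and cofactors were tested and 0 were called. Log2 fold changes were -0.07 (SE 0.0603) for Nfrkb, -0.03 (SE 0.0439) for Eed and 0.03 (SE 0.0516) for Yaf2. The relative Yy2 had 0.16 with a wide SE of 0.763. Among 24 red cell membrane, enzyme and receptor genes 9 were tested and 0 were called, with 1 at an unadjusted p under 0.05 and log2 fold changes from -0.53 to 0.57. The most abundant were Sptb (log2 fold change 0.05, SE 0.0386), Epb41 (0.01, SE 0.0440) and Xpo7 (0.04, SE 0.0457), all of which other tissues use too.

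**Figure D4:**
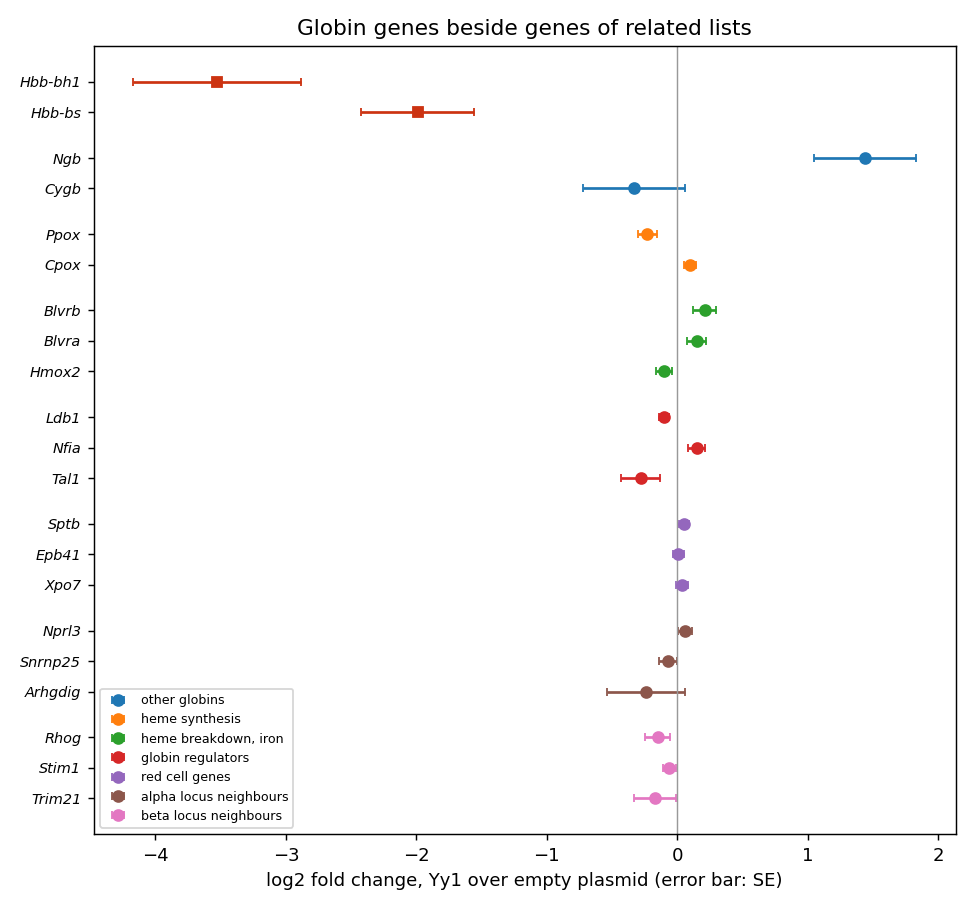
Log2 fold change, Yy1 over empty plasmid, with its SE (horizontal axis) for Hbb-bh1 and Hbb-bs (squares) and for the genes named from 7 related lists (circles, coloured by list). Apart from Ngb at 1.44, the related genes lie between -0.33 and 0.21, while Hbb-bh1 lies at -3.53 and Hbb-bs at -1.99.

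Over the 8 libraries, which fall into the 2 groups, the genes most like Hbb-bh1 by Pearson's r of log2(CPM + 1) were Tle6 (r = 0.973), a Groucho-type corepressor gene, Gabrg1 (r = 0.969), a GABA receptor subunit gene, and Ric3 (r = 0.937), a receptor chaperone gene. These values rank genes and carry no test. Only tested genes with a symbol were ranked, leaving out the globin genes and names that start with Gm or end in Rik. The difference between the groups was small for Tle6, with 29.0 ± 0.601 and 26.2 ± 0.0504 CPM, and for Ric3, with 76.1 ± 0.328 and 72.6 ± 0.682 CPM (SD, n = 4). Gabrg1 stood at 0.626 ± 0.0688 and 0.330 ± 0.0664 CPM (SD, n = 4), giving a log2 fold change of -0.91 (SE 0.332). All 3 missed the threshold of edgeR (adjusted p = 0.591 for Tle6 and Gabrg1 and 0.946 for Ric3). The r between Hbb-bh1 and Hbb-bs was 0.922.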

How the data were processed

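Messenger RNA was measured in 8 samples of αTC1-6 cells, 4 per plasmid. Per the labels' protocols, poly(A) RNA was made into directional libraries. Tools named in the submitters' processing notes are fastp and kallisto, with build GRCm39, and versions are not given in the sources used here. The table deposited by the authors holds estimated counts per Ensembl gene, not scaled for depth; these were rounded to whole numbers for the tests, and 0 sample columns were left unused. Symbols came from a table of an older annotation that matched 48278 of 75078 IDs.

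Low genes were removed by filterByExpr at a count of 10 and a total of 15. TMM factors scaled the libraries, and the two-sided test was that of edgeR 4.0.16 (quasi-likelihood, robust; R 4.3.3), with Benjamini-Hochberg adjustment over 15916 genes at 0.05. The script was tested on simulated data. SE is the log2 fold change divided by the square root of F. Intervals are exact binomial (Clopper-Pearson), level 95%, and cover counting error only. Alternatives used DESeq2 1.42.0, limma-voom (limma 3.58.1), other scalings and filters, and each library left out. Motifs were matched letter by letter in RefSeq promoters, and transcript words and lengths came from GENCODE M21.

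The members and lists were chosen with earlier results of these data known. The rule for named genes took all members and Yy1. It also took the 3 tested genes with the smallest p from each related list (from marker lists the 3 most abundant). The 3 ranked genes most like Hbb-bh1 were taken too. Other names were chosen after their values were seen, and a few genes are not reported here.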

Additional observations from a re-analysis of the deposited data

Results flagged for a closer look

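Values that stood apart from the rest of their group were sought in 76 groups of 4 libraries. The measure was the gap to the nearest library as a share of the group's range, against Dixon's critical value for 4 samples at 95%. The rate of about 1 in 20 groups that goes with this value does not apply here. Some genes were chosen after their values were seen, and the sums hold genes that are also counted singly. A gene with counts in only 1 library of a group has a share of 1 whatever the count. The critical value was exceeded in 18 groups, 12 of them through library 47. Whether this is more than such a choice of groups would give was not tested.

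Among the globin genes, library 47 stood apart from the other Yy1 libraries for Hbb-bt (share 1), Hbb-bs (0.83), Hba-a2 (0.832), the sum of Hbb-bs and Hbb-bt (0.872) and the sum of all 8 genes (0.95). Of the white cell and platelet genes it did so for S100a8 (1), S100a9 (0.942), Lyz2 (0.91), Adgre1 (1), Pf4 (1) and Cd74 (0.85), an antigen presentation gene with 15 counts there. Hmox2 also stood apart in library 47 (0.924), at 35.0 CPM against 33.3, 33.4 and 33.5 CPM in the other Yy1 libraries. The controls ran from 31.9 to 41.2 CPM, so its value in library 47 lay within their range. Control library 31 stood apart for Hbb-bt (1) and S100a9 (1), both with fewer than 5 counts.

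The remaining values rest on few counts. Library 45 stood apart for Hba-x, Hbq1b and Alas2 (1 each), on 2, 2 and 1 counts. Yy1 library 48 stood apart for Ppbp (0.85), a platelet chemokine gene, with 13.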

How the results depend on the processing

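Of 17 alternatives, Hbb-bh1 was called lower with the Yy1 plasmid in 16 and was removed by the filter of 1 CPM in 4 libraries. Hbb-bs was lower in all 17. These calls repeat the contrast that chose the genes and are no independent support. Hbb-bs was called in 3, with limma-voom, with no filter and without library 47. Leaving out 1 library gave log2 fold changes from -4.03 to -3.15 for Hbb-bh1 and from -2.86 to -1.73 for Hbb-bs, and from 4.84 to 4.94 for Yy1. With no filter the adult alpha and Hbb-bt values changed sign with single libraries: Hba-a1 had -0.01 over all libraries and -0.77 to 0.69 without one, Hba-a2 0.68 and -0.91 to 1.24, and Hbb-bt 1.14 and -3.18 to 4.35. Genes called higher numbered 79, 52 with 1 CPM in 4 libraries, 151 with no filter and 60 to 83 without 1 library. Genes called lower numbered 3, 5 with DESeq2, 23 with no filter and 2 to 7 without 1 library (6 without control library 33, 7 without Yy1 library 45 and 5 without 47). The causes were not tested. Each shorter motif lies within its longer form or the reverse complement of that form, so it could not match fewer promoters. Of 7 globin promoters, CCAT matched 6, GATA 7, CACCC 6, CAAT 6 and ATAA 7. The shares of all promoter windows were 83.1%, 57.9%, 57.5%, 72.8% and 64.1% in the same order. No paired analysis was possible because the groups share no sample numbers.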

Other observations

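Ptprc, which encodes the white cell phosphatase CD45, had 2, 5, 2 and 2 counts in the controls and 19, 17, 9 and 10 in the Yy1 libraries, or 0.106 ± 0.0568 and 0.434 ± 0.165 CPM (SD, n = 4), and its groups did not overlap. It was singled out after its values were seen and was too low for the filter. With no filter its log2 fold change was 2.01 (SE 0.570; edgeR adjusted p = 0.0855), where 0.373% of genes were called higher. Ppbp had 6, 0, 0 and 1 counts in the controls and 2, 0, 1 and 13 in the Yy1 libraries.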
